A study of Mus musculus with 4 samples.

Results

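The genes described here encode the enzymes and receptors that handle extracellular ATP, NAD and adenosine, in transcriptomes of CD8+ T cells enriched from percutaneous tumour grafts in mice. They were chosen by symbol: Entpd1, Nt5e, Cd38, Adora2a, Adora2b, Ada, Adk and P2rx7, which are 8 of the 36464 gene IDs measured, and all 8 were found. In both treatment groups the hosts were wild-type male C57BL/6 mice that carried a graft, and the age of the mice and the line of the graft are not given in the labels. One group received an antibody against SIGLEC15, a sialic acid-binding protein studied as an immune checkpoint, and the other received control IgG, both by intraperitoneal injection over 2 weeks. Each group had 6 mice, grafts were collected on day 19, and 3 cell pellets were mixed per library, so that each treatment had 2 libraries. The title states the question as how CD8+ T cells in the tumour change in function when SIGLEC15 is blocked. Any SD or p below describes the spread between these pools, not between single mice.

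ATP released by stressed or dying cells is broken down on cell surfaces by CD39 (Entpd1) to AMP, and CD73 (Nt5e) turns AMP into adenosine. CD38 consumes NAD, whose products can feed the same route to AMP. Adenosine acts through the A2 receptors encoded by Adora2a and Adora2b, which raise cyclic AMP and restrain T cell activation, while adenosine deaminase (Ada) and adenosine kinase (Adk) remove adenosine. CD39 and CD38 are also known as surface markers of exhausted CD8+ T cells in tumours.

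The 4 libraries held between 14854801 and 16026197 reads counted in genes. Mitochondrial genes took 8.92% and 18.38% of these reads in anti-SIGLEC15 replicates 1 and 2, against 11.88% and 12.96% in IgG replicates 1 and 2. The deposited values are read as RPKM, counted reads scaled to exon length and to the library total, so that levels can be compared roughly between genes. The length is that of all annotated exons of a gene together, so a gene that uses only some of them is understated. IgG replicate 1 stood apart: Cd8a, the alpha chain gene of the CD8 coreceptor, measured 290.2 and 315 RPKM in the anti-SIGLEC15 libraries, against 115 RPKM in IgG replicate 1 and 351 RPKM in IgG replicate 2. The geometric mean of 15 T cell identity genes was 158 and 163 RPKM with anti-SIGLEC15, against 55.5 and 179 RPKM with IgG. All 15 had their lowest value in IgG replicate 1, as had 43.4% of the 12484 genes tested. In that library genes of hepatocytes and hepatoma cells and of neutrophils had their highest sums. In such mixed samples, fewer cells of a type and less RNA per cell cannot be told apart. The fold changes of the tested genes of the set and the medians of the pathway lists are given with and without it.

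The promoter windows of Entpd1, Cd38 and Nt5e are shown because Entpd1 and Cd38 are the surface enzymes set against Cd8a below, and Nt5e is the gene whose treatment groups did not overlap. The sequences are from RefSeq on GRCm38.p6, cover 250 bases before to 50 bases after an annotated start, and read 5′ to 3′ on the gene's strand, which is the plus strand for each. Windows were found for 7 of the 8 genes, 10 windows in all, and none was matched for Adora2a. Capitals mark matches, on either strand, to GGAAA (the core bound by NFAT) or TGTGGT (a RUNX motif), which were searched together with ACGTG (the core of the hypoxia response element) and TGACGTCA (the cyclic AMP response element).
Entpd1, first start, chr19:40612116-40612415: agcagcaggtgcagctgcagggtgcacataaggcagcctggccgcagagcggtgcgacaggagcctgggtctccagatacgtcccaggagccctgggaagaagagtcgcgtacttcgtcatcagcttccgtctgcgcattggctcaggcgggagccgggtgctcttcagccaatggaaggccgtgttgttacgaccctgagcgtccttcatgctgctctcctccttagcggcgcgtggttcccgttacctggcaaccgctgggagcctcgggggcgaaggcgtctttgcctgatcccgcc
Entpd1, second start, chr19:40659520-40659819: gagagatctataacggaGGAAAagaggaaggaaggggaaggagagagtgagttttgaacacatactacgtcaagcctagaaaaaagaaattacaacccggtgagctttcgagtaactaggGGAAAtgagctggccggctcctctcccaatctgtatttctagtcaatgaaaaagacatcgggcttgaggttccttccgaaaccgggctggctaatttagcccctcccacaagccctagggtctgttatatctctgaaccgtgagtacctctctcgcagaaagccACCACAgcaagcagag
Cd38, chr5:43868559-43868858: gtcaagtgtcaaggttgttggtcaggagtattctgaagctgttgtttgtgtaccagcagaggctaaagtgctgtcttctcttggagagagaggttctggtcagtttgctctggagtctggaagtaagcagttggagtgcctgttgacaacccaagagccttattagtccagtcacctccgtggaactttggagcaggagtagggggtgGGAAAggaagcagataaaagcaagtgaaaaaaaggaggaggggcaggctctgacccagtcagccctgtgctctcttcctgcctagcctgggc
Nt5e, chr9:88327359-88327658: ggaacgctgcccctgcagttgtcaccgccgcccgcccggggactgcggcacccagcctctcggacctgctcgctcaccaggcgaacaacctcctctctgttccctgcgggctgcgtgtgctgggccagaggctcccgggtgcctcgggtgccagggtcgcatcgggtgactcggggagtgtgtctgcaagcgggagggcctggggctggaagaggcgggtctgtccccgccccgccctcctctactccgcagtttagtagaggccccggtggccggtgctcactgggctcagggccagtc
GGAAA was found 2 times at the second start of Entpd1 and 1 time in the Cd38 window, and it occurred in 61.3% of the 32851 windows of this length. TGTGGT was found 1 time, at the second start of Entpd1, and occurred in 16.8% of all windows. No matches overlapped. ACGTG, present in 19.6% of all windows, and TGACGTCA, present in 1.79%, matched 0 of the 10 windows. The windows differed in CpG content: that of Cd38 held 1 CpG, against 23 in the Nt5e window, 23 at the first start of Entpd1 and 10 at its second start. The median over all windows was 7, and 14.1% had at most the count of Cd38. The gene-level values do not tell which Entpd1 start was used.

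Among the surface enzymes, Entpd1 (ENSMUSG00000048120, chromosome 19, 40612366 to 40741602, plus strand, GRCm38) was the most abundant. It measured 11.9 and 12.7 RPKM in the anti-SIGLEC15 libraries, from 1045 and 1056 reads, against 6.5 RPKM in IgG replicate 1 and 13.4 RPKM in IgG replicate 2, from 581 and 1160 reads. Both anti-SIGLEC15 values lay between the IgG values, so the groups overlapped. The means were 12.3 ± 0.572 RPKM with anti-SIGLEC15 and 9.95 ± 4.88 RPKM with IgG (SD, n = 2 each).

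Cd38 (ENSMUSG00000029084, chromosome 5, 43868553 to 43912375, plus strand) encodes the main NAD-consuming enzyme of the lymphocyte surface. It measured 6.19 and 7.8 RPKM with anti-SIGLEC15, against 2.58 RPKM in IgG replicate 1 and 7.61 RPKM in IgG replicate 2. Here too IgG replicate 1 was the lowest library, and the other 3 lay close together. The group means were 7.0 ± 1.14 RPKM with anti-SIGLEC15 and 5.09 ± 3.55 RPKM with IgG (SD, n = 2 each).

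Nt5e (ENSMUSG00000032420, chromosome 9, 88327197 to 88372092, plus strand), whose product makes adenosine from AMP, was scarcer than Entpd1 in every library. It measured 1.76 RPKM (95% Poisson interval 1.54 to 1.99, 237 reads) and 2.72 RPKM (2.44 to 3.03, 348 reads) with anti-SIGLEC15, against 0.667 RPKM (0.538 to 0.818, 92 reads) and 1.21 RPKM (1.03 to 1.41, 161 reads) with IgG. These intervals cover counting error only. Both anti-SIGLEC15 libraries lay above both IgG libraries, and the means were 2.24 ± 0.685 and 0.937 ± 0.381 RPKM (SD, n = 2 each). This was the 1 gene of the 8 whose groups did not overlap. Over all 12484 genes tested, 12.1% had both anti-SIGLEC15 values above both IgG values and 6.02% had both below. Among the 6 tested genes of the set the count is 1, which is close to this background. P2rx7 and Adora2b were not among the genes tested. The ratio of Entpd1 to Nt5e was 6.8 and 4.68 with anti-SIGLEC15, against 9.74 and 11.1 with IgG.

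**Figure D1:**
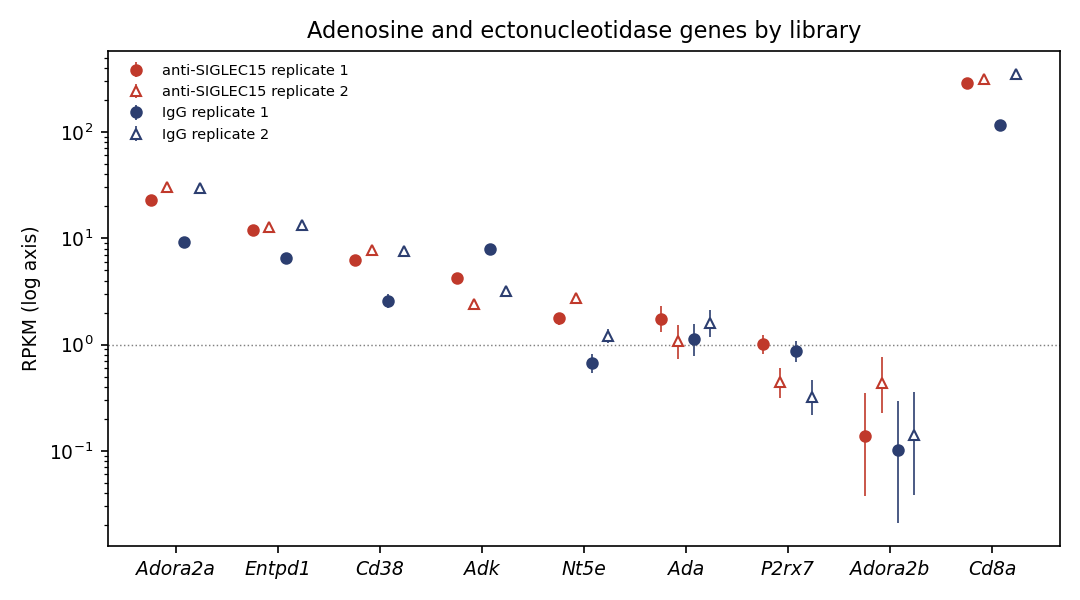
RPKM of the 8 genes and of Cd8a on a log axis, with 1 point per library (red, anti-SIGLEC15; blue, IgG; circles, replicate 1; triangles, replicate 2). Bars are 95% Poisson intervals of the reads and the dotted line marks 1 RPKM; Adora2a, Entpd1, Cd38, Nt5e and Cd8a share a low value in IgG replicate 1, and Adk is highest there.

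Of the receptors, Adora2a (ENSMUSG00000020178, chromosome 10, 75316877 to 75334784, plus strand), the main adenosine receptor of T cells, was the most abundant of the 8 genes in all 4 libraries. It measured 22.8 and 30.6 RPKM with anti-SIGLEC15, against 9.21 RPKM in IgG replicate 1 and 29.4 RPKM in IgG replicate 2. The groups overlapped, and the means were 26.7 ± 5.54 and 19.3 ± 14.3 RPKM (SD, n = 2 each). The ratio of Adora2a to Cd38 was nearly the same everywhere: 3.68 and 3.92 with anti-SIGLEC15, against 3.57 and 3.87 with IgG.

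Adora2b (ENSMUSG00000018500, chromosome 11, 62248984 to 62266453, plus strand), the lower-affinity A2 receptor, was the least abundant of the 8 in all 4 libraries. It had 4 and 12 reads with anti-SIGLEC15 (0.138 and 0.438 RPKM), against 3 and 4 reads with IgG (0.101 and 0.14 RPKM). The 95% Poisson interval of the highest library ran from 0.226 to 0.765 RPKM and that of the lowest from 0.0209 to 0.297 RPKM, so a difference between treatments was not detectable at this depth.

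P2rx7 (ENSMUSG00000029468, chromosome 5, 122643911 to 122691432, plus strand) encodes an ATP-gated channel that, on mouse T cells, can also be opened by NAD through the ADP-ribosyltransferase ARTC2.2. It measured 1.01 and 0.44 RPKM with anti-SIGLEC15, from 95 and 39 reads, against 0.868 and 0.324 RPKM with IgG, from 83 and 30 reads. In each group 1 library was more than double the other, and the groups overlapped. Of its exon bases, 1.99% overlap the microRNA gene Mir8115, and the exons of the other 7 genes overlap no other annotated gene.

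Of the genes that remove adenosine, Ada (ENSMUSG00000017697, chromosome 2, 163726584 to 163750239, minus strand), which converts adenosine to inosine and whose loss causes severe immunodeficiency in humans, was low. It measured 1.75 and 1.08 RPKM with anti-SIGLEC15, against 1.12 and 1.61 RPKM with IgG, from 32 to 55 reads per library. The Poisson intervals of all 4 libraries overlapped, from 1.32 to 2.28 RPKM for the highest and from 0.736 to 1.52 RPKM for the lowest.

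Adk (ENSMUSG00000039197, chromosome 14, 21052574 to 21448569, plus strand), which phosphorylates adenosine to AMP and is abundant in liver, ran the other way across the IgG libraries. It measured 4.21 and 2.42 RPKM with anti-SIGLEC15, against 8.0 RPKM in IgG replicate 1 and 3.17 RPKM in IgG replicate 2. IgG replicate 1 was 2.45 times the mean of the other 3 libraries for Adk, but 0.512 times for Entpd1, 0.359 times for Cd38, 0.334 times for Adora2a and 0.36 times for Cd8a. The summed level of 9 genes of hepatocytes and hepatoma cells was 2514 and 1239 RPKM with anti-SIGLEC15, against 5879 and 1190.1 RPKM with IgG, and each of the 9 was above 0 in at least 1 library. Alb, the serum albumin gene, measured 1089 and 625 RPKM with anti-SIGLEC15, against 2795 and 556 RPKM with IgG. IgG replicate 1 was the highest library for 5 of the 8 tested genes of this list. Apoa1, Apoa2 and Ahsg were highest in anti-SIGLEC15 replicate 1 instead. They measured 92.2, 15.3 and 38.5 RPKM there, against 64.4, 3.95 and 37.1 RPKM in IgG replicate 1. Neutrophil genes, 7 in number, summed to 213 and 365 RPKM with anti-SIGLEC15, against 838 and 67.4 RPKM with IgG. IgG replicate 1 was thus the highest library for Adk and for both sums, and it was the highest for 34.0% of all tested genes. It was the lowest for 4 of the 6 tested genes of the set. The part of these cells in the level of Adk was not tested.

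Set against Cd8a, the spread between libraries shrank for Cd38, Adora2a, Entpd1, Nt5e and Adora2b and widened for Adk, P2rx7 and Ada. Cd38 amounted to 2.13% and 2.48% of Cd8a RPKM with anti-SIGLEC15, against 2.25% and 2.16% with IgG. The means were 2.3% ± 0.242 and 2.21% ± 0.0589 (SD, n = 2 each), and the highest library was 1.16 times the lowest, compared with 3.02 times for the RPKM of Cd38. The SD of its log2 values over the 4 libraries was 0.10 relative to Cd8a and 0.75 for RPKM. Of the 12281 tested genes above 0 in every library, 0.643% had an SD relative to Cd8a as small as that of Cd38, 19.9% had a smaller SD relative to Cd8a than for RPKM, and the median SD was 0.75 relative to Cd8a and 0.36 for RPKM.

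Entpd1 amounted to 4.11% and 4.04% of Cd8a with anti-SIGLEC15, against 5.66% in IgG replicate 1 and 3.81% in IgG replicate 2. The means were 4.08% ± 0.0503 and 4.73% ± 1.3 (SD, n = 2 each), with IgG replicate 1, the lowest library for Entpd1 RPKM, now the highest. The mean log2 ratio to Cd8a differed by -0.19 for Entpd1 and by 0.06 for Cd38, anti-SIGLEC15 minus IgG. The two-sided exact permutation p was 1 for each, and 2 libraries against 2 cannot give a p below 0.333. Without IgG replicate 1 the difference for Entpd1 turned to 0.10. For Cd38 it turned to -0.05 without anti-SIGLEC15 replicate 2 and to -0.04 relative to the T cell identity list.

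Adora2a amounted to 7.84% and 9.71% of Cd8a with anti-SIGLEC15, against 8.02% and 8.37% with IgG, a span of 1.24 times compared with 3.32 times for RPKM. An SD as small as that of Adora2a relative to Cd8a was found for 1.47% of tested genes, and one as small as that of Entpd1 for 5.45%. Nt5e amounted to 0.605% and 0.864% of Cd8a with anti-SIGLEC15, against 0.581% and 0.343% with IgG. Its groups did not overlap on this scale either, where 4.09% of tested genes had both anti-SIGLEC15 values above both IgG values and 5.61% had both below. They did overlap relative to the T cell identity list, at 1.11% and 1.67% with anti-SIGLEC15, against 1.2% and 0.674% with IgG. Adk amounted to 1.45% and 0.769% of Cd8a with anti-SIGLEC15, against 6.96% and 0.902% with IgG, so its span widened to 9.06 times.

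**Figure D2:**
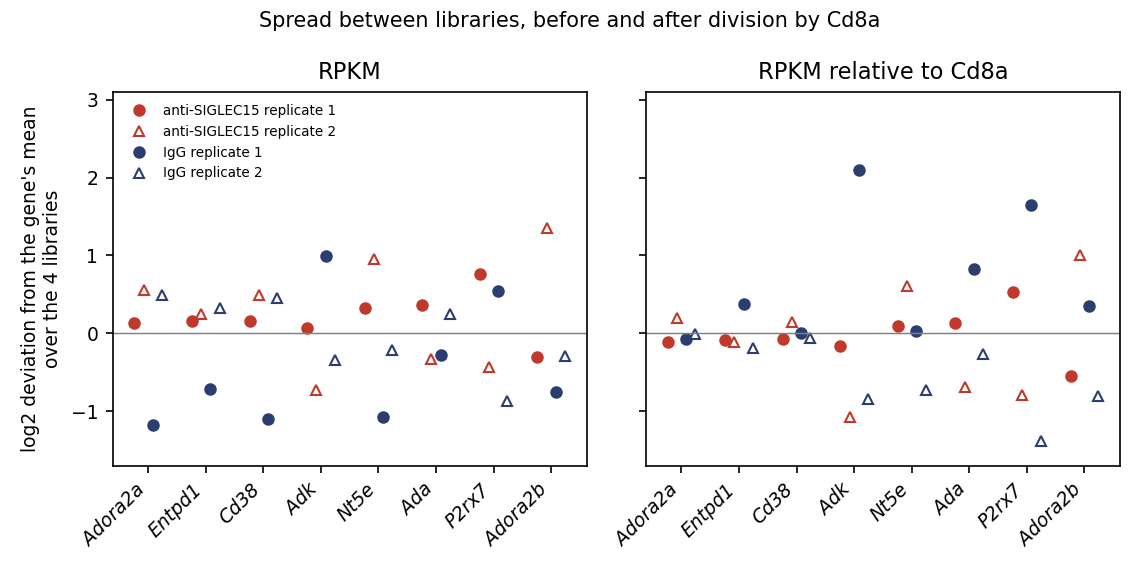
Deviation of each library from the gene's mean over the 4 libraries, in log2 units, for RPKM (left) and for RPKM divided by that of Cd8a (right), with 1 point per library. The points of Cd38 and Adora2a draw together after division, to SDs of 0.10 and 0.14, while those of Adk and P2rx7 spread to 1.45 and 1.36.

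By mean level over the 4 libraries the order was Adora2a (23.0 RPKM), Entpd1 (11.1), Cd38 (6.05), Adk (4.45), Nt5e (1.59), Ada (1.39), P2rx7 (0.661) and Adora2b (0.204 RPKM). Adora2a exceeded Entpd1, Entpd1 exceeded Cd38, Ada exceeded P2rx7 and P2rx7 exceeded Adora2b in 4 of 4 libraries. The last of these steps was within counting error in anti-SIGLEC15 replicate 2, where P2rx7 was 0.44 RPKM and Adora2b 0.438 RPKM. In IgG replicate 2 their Poisson intervals also overlapped, from 0.219 to 0.462 RPKM for P2rx7 and from 0.0381 to 0.358 RPKM for Adora2b. Cd38 exceeded Adk, and Adk exceeded Nt5e, in 3 of 4 libraries: Adk was above Cd38 in IgG replicate 1 and below Nt5e in anti-SIGLEC15 replicate 2. Nt5e exceeded Ada in 2 of 4, the anti-SIGLEC15 libraries, by less than counting error in replicate 1, so these neighbours did not differ beyond their spread. Adora2a lay at the percentile 82.9 of tested genes by mean level, Entpd1 at 68.1 and Cd38 at 51.4, and Cd8a at 98.2.

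The comparison of anti-SIGLEC15 with IgG was tested with limma on log2(RPKM + 1). A gene entered the test if 2 or more libraries reached 1 RPKM, which 6 of the 8 genes did. P2rx7 and Adora2b did not, and for these the difference in mean log2(RPKM + 1), anti-SIGLEC15 minus IgG, was 0.11 and 0.19. At a Benjamini-Hochberg adjusted p of 0.05, limma called 0 of the 6 and 0 of all 12484 genes (0.0%), and unadjusted p values under 0.05 numbered 146 (1.17%). Of the 6, none had an unadjusted p under 0.05 in this fit of log2(RPKM + 1). With limma-voom, fitted to the recovered reads of 15061 genes, the calls were also 0 (0.0%), and 90 genes (0.598%) had an unadjusted p under 0.05. Nt5e was one of these 90, with a log2 fold change of 1.28 (unadjusted p = 0.0452, limma-voom adjusted p = 1), and with a pseudocount of 0.1 in place of 1 its log2 fold change was 1.19 (unadjusted p = 0.0866, limma adjusted p = 1). The log2 fold change of Nt5e was 0.74 (95% interval -0.14 to 1.62, unadjusted p = 0.0834, limma adjusted p = 1). It was 0.64 for Adora2a (-0.84 to 2.12), 0.52 for Cd38 (-0.74 to 1.78), 0.36 for Entpd1 (-0.62 to 1.34), 0.02 for Ada (-0.83 to 0.87) and -0.54 for Adk (-1.78 to 0.7), each with an adjusted p of 1. The median of the 6 was 0.44 and that of all tested genes 0.02. The intervals do not show that the treatments gave equal levels: that of Entpd1 still holds a 2-fold difference.

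The sign of 5 of these fold changes depended on which IgG library was kept. Without IgG replicate 1 the log2 fold change was -0.11 for Entpd1, -0.11 for Cd38, -0.15 for Adora2a, -0.13 for Ada and 0.02 for Adk, opposite to the values from all libraries, and 1.13% of genes but 0 of the 6 were called. Without IgG replicate 2, limma called Cd38 (1.15, adjusted p = 0.0251), Adora2a (1.42, adjusted p = 0.000641) and Adk (-1.09, adjusted p = 0.0398). In that fit 18.6% of genes were called, and IgG replicate 1 alone stood for IgG and was assumed to vary like the anti-SIGLEC15 pair. Nt5e ran from 0.52 to 0.96 as each library was left out, and was 0.54 without IgG replicate 1. Its sign could not change in these fits, because its groups do not overlap. When scaled to Cd8a the values were -0.17 for Entpd1, 0.05 for Cd38, 0.09 for Adora2a and 0.40 for Nt5e. The median of all genes lay at -0.49 in that fit and at -0.57 when scaled to the T cell identity list.

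**Figure D3:**
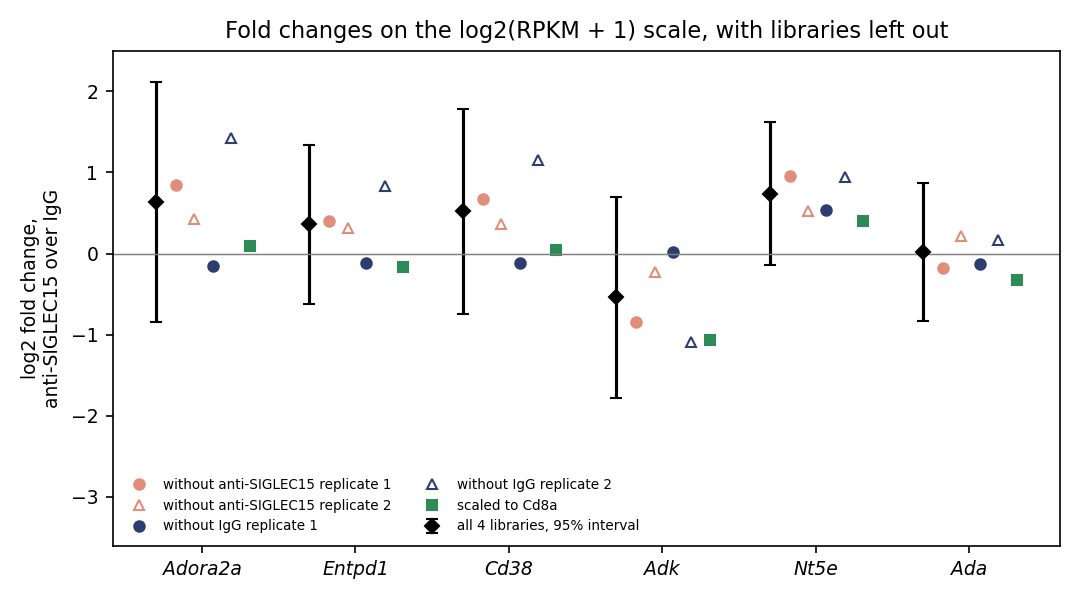
Log2 fold change of the 6 tested genes, anti-SIGLEC15 over IgG, on the log2(RPKM + 1) scale: from all libraries with the 95% interval of limma (black), with each library left out in turn, and scaled to Cd8a (green). Every black interval crosses 0, and the values of Entpd1, Cd38, Adora2a, Ada and Adk change sign without IgG replicate 1.

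Other ectonucleotidases and surface enzymes of ATP and NAD also did not pass: of 11 genes, 6 were tested, 0 were called in either direction, and their median log2 fold change was -0.04, or 0.43 without IgG replicate 1. Art2b, which encodes ARTC2.2, the enzyme that gates P2X7 on mouse T cells, measured 4.03 and 2.4 RPKM with anti-SIGLEC15, against 0.861 and 1.5 RPKM with IgG. Its log2 fold change was 0.94 (SE 0.36, unadjusted p = 0.0451, limma adjusted p = 1), and 0.72 without IgG replicate 1. Its neighbour of the same family, Art2a-ps, measured 3.35 and 2.36 RPKM with anti-SIGLEC15, against 2.13 and 1.08 RPKM with IgG. The reads of this pair may be split between them, which was not tested. These were the 2 of 6 whose groups did not overlap, both higher with anti-SIGLEC15, beside the 12.1% higher and 6.02% lower of all tested genes. Enpp2, the autotaxin gene, measured 9.24 and 3.02 RPKM with anti-SIGLEC15, against 19.1 and 3.82 RPKM with IgG, and Entpd2 2.6 and 1.39 RPKM against 7.01 and 1.15 RPKM. Both had their highest value in IgG replicate 1, as Adk had.

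Of the 5 intracellular and Golgi nucleotidases, 4 were tested, 0 were called and 0 had groups apart, with a median log2 fold change of -0.19, or -0.05 without IgG replicate 1. Entpd5 measured 5.48 and 4.16 RPKM with anti-SIGLEC15, against 5.35 and 5.32 RPKM with IgG, and Cant1 9.69 and 6.9 RPKM against 7.5 and 8.51 RPKM. The other 2 tested genes were highest in IgG replicate 1: Entpd6 measured 6.76 and 4.05 RPKM with anti-SIGLEC15, against 9.75 and 4.09 RPKM with IgG, and Entpd7 1.14 and 0.909 RPKM against 2.18 and 0.899 RPKM. Entpd4 was at 0 in all 4 libraries.

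Of 16 other adenosine and nucleotide receptors, 4 were tested and 0 called, with a median log2 fold change of 0.15, or 0.35 without IgG replicate 1. P2ry10, a receptor of lysophospholipids named with the nucleotide receptors, measured 73.3 and 84.6 RPKM with anti-SIGLEC15, against 26.1 and 86.3 RPKM with IgG, the pattern of Cd8a. Adora1, the A1 adenosine receptor, measured 2.98 and 1.18 RPKM with anti-SIGLEC15, against 7.73 and 1.31 RPKM with IgG. P2ry2, a receptor of ATP and UTP, was also highest in IgG replicate 1, at 1.46 and 1.39 RPKM with anti-SIGLEC15, against 3.46 and 0.722 RPKM with IgG. P2ry12, best known as the ADP receptor of platelets and microglia, was the 1 of 4 whose groups did not overlap, at 1.28 and 1.98 RPKM with anti-SIGLEC15, against 0.662 and 1.04 RPKM with IgG. The background is again 12.1% of the tested genes for higher and 6.02% for lower. Adora3 was not tested and measured at most 0.361 RPKM.

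Of the genes that move nucleosides or release ATP, 5 of 6 were tested, 0 were called and 0 groups lay apart, with a median log2 fold change of -0.07, or 0.05 without IgG replicate 1. The concentrative transporter gene Slc28a2 measured 18.9 and 16.8 RPKM with anti-SIGLEC15, against 5.37 and 17.2 RPKM with IgG, and the ATP channel gene Panx1 5.76 and 7.08 RPKM against 1.8 and 5.79 RPKM. The equilibrative transporter gene Slc29a1 was highest in IgG replicate 1, at 18.3 and 9.72 RPKM with anti-SIGLEC15, against 28.3 and 14 RPKM with IgG. So was Slc29a2, a second equilibrative transporter gene, at 2.15 and 1.16 RPKM against 3.82 and 1.2 RPKM.

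Of 16 genes of intracellular purine handling, 13 were tested and 0 called, with a median log2 fold change of 0.0, or -0.05 without IgG replicate 1. Among the 13, 1 lay higher (Nt5c, 67.5 and 68.0 RPKM with anti-SIGLEC15, against 58.8 and 65.5 RPKM with IgG) and 1 lower (Aprt, a purine salvage enzyme, 80.2 and 77.7 RPKM against 93.8 and 85.7 RPKM), beside 12.1% higher and 6.02% lower of all tested genes. Nt5c was named after its values were seen. Dpp4, which encodes CD26, a surface protein that binds adenosine deaminase in humans, measured 13.5 and 14.2 RPKM with anti-SIGLEC15, against 4.27 and 13.8 RPKM with IgG. Hprt, of purine salvage, measured 117 and 99.6 RPKM against 73.6 and 131 RPKM. The nucleotidase gene Nt5c3b averaged 18.1 ± 4.21 RPKM with anti-SIGLEC15 and 14.4 ± 5.9 RPKM with IgG (SD, n = 2 each), lowest in IgG replicate 1. The AMP deaminase gene Ampd2 measured 9.38 and 5.45 RPKM with anti-SIGLEC15, against 10.6 and 8.51 RPKM with IgG, and Ahcy, whose product releases adenosine from S-adenosylhomocysteine, 52.1 and 37.3 RPKM against 67.8 and 45 RPKM. The groups overlapped for each of these 3.

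Of 16 genes of cyclic AMP signalling, the route on which both A2 receptors act, 15 were tested and 0 called, with a median log2 fold change of 0.22, or -0.02 without IgG replicate 1. IgG replicate 1 was the lowest library for 13 of the 15. Pde3b, a phosphodiesterase that degrades cyclic AMP, was the 1 whose groups did not overlap, at 5.42 and 6.35 RPKM with anti-SIGLEC15, against 2.12 and 4.1 RPKM with IgG (log2 fold change 0.79, unadjusted p = 0.073, limma adjusted p = 1, and 0.43 without IgG replicate 1), beside 12.1% higher and 6.02% lower of all tested genes. Crem, a cyclic AMP-responsive transcription factor gene, measured 7.12 and 10.8 RPKM with anti-SIGLEC15, against 4.35 and 7.93 RPKM with IgG. The adenylyl cyclase gene Adcy7 measured 27.0 and 23.5 RPKM against 7.42 and 29.4 RPKM, and Prkar1a, a regulatory subunit of protein kinase A, 88.6 and 106 RPKM against 78.3 and 105 RPKM. The phosphodiesterase gene Pde4b measured 8.8 and 13.2 RPKM with anti-SIGLEC15, against 6.91 and 9.2 RPKM with IgG, and Akap13, which encodes an anchor of protein kinase A, 11.8 and 18.7 RPKM against 5.89 and 15.0 RPKM.

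**Figure D4:**
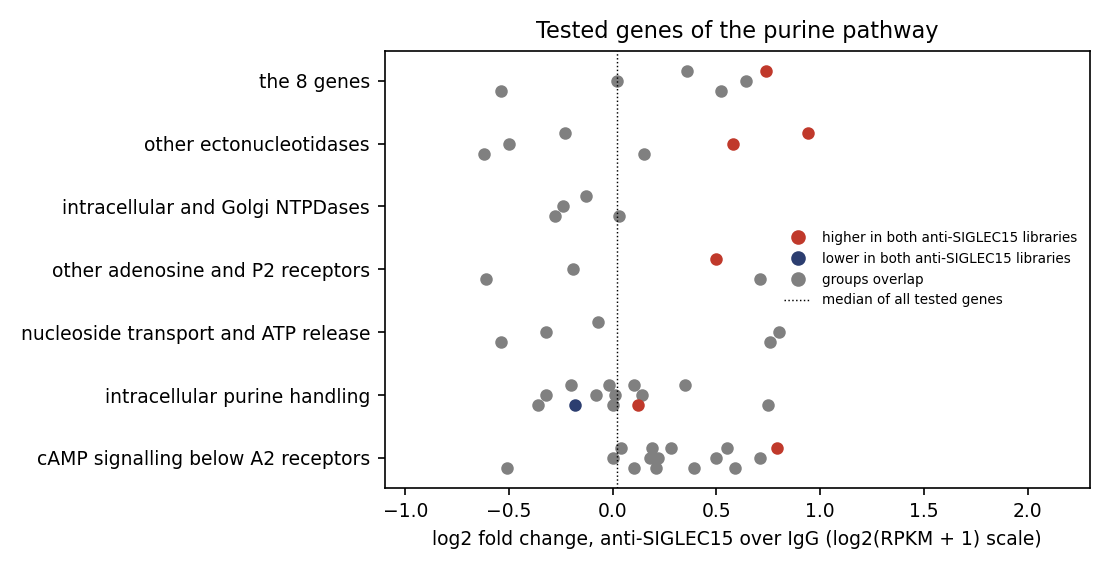
Log2 fold change, anti-SIGLEC15 over IgG, of the tested genes in each purine pathway list, with 1 point per gene; red marks genes with both anti-SIGLEC15 values above both IgG values, blue those with both below, and the dotted line is the median of all tested genes (0.02). The points of every list lie on both sides of 0, and 0 of them passed the test.

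Markers of other cells that can carry these genes differed between libraries. The exhausted CD8 T cell list, whose cells carry CD39 and CD38, summed to 738 and 945 RPKM with anti-SIGLEC15, against 337 and 1048 RPKM with IgG, and all 8 of its tested genes were lowest in IgG replicate 1. Foxp3, the defining gene of regulatory T cells, which carry CD39 and CD73, measured 0.724 and 0.118 RPKM with anti-SIGLEC15, against 0.177 and 0.451 RPKM with IgG. The 7 regulatory T cell genes, of which activated CD8+ T cells also express several, summed to 192 and 232 RPKM with anti-SIGLEC15, against 136 and 285 RPKM with IgG. B and plasma cells can carry CD38 and CD73. Their 9 genes summed to 124 and 142 RPKM with anti-SIGLEC15, against 46.2 and 74.8 RPKM with IgG. These sums did not overlap between the groups, and neither did those of macrophages and monocytes below. Of the 4 tested genes of B and plasma cells, 3 were higher in both anti-SIGLEC15 libraries, beside 12.1% of all tested genes. The largest contributor to the sums, the immunoglobulin gene Igkc, measured 82.3 and 108 RPKM with anti-SIGLEC15, against 17.8 and 47.4 RPKM with IgG. Ighm measured 28.7 and 26.2 RPKM against 6.85 and 20.4 RPKM. The groups overlapped for 3 other genes named from that list: Sdc1 measured 9.85 and 4.77 RPKM with anti-SIGLEC15, against 20.7 and 4.81 RPKM with IgG, Cd79b 0.89 and 0.141 RPKM against 0.0436 and 0.946 RPKM, and Pax5 0.367 and 0.281 RPKM against 0.176 and 0.35 RPKM. The 5 red cell genes, led by the globin gene Hbb-bs, summed to 113 and 19.9 RPKM with anti-SIGLEC15, against 691 and 1929 RPKM with IgG. All 5 were lower in both anti-SIGLEC15 libraries, beside 6.02% of the tested genes, with a median log2 fold change of -4.42, and 0 of them passed the test. The 11 genes of macrophages and monocytes summed to 226 and 183 RPKM with anti-SIGLEC15, against 95.7 and 166 RPKM with IgG. Most of this sum was Ly6c2, which CD8+ T cells also express, at 194 and 142 RPKM against 52.9 and 135 RPKM. Cd68, another gene of this list, measured 24.8 and 31.0 RPKM with anti-SIGLEC15, against 28.1 and 24.5 RPKM with IgG. Lyz2 measured 2.71 and 4.19 RPKM against 8.16 and 1.62 RPKM. The macrophage receptor gene Csf1r was at most 0.865 RPKM. The 7 endothelial genes summed to 3.5 and 2.99 RPKM against 2.75 and 3.19 RPKM, and the 7 fibroblast genes to 2.54 and 2.25 RPKM against 3.01 and 1.36 RPKM. No gene of these lists was at 0 in every library. Their part in the levels of Entpd1, Cd38 and Nt5e was not tested.

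The genes most like Entpd1 over the 4 libraries, among 5888 protein-coding genes with a mean of at least 5 RPKM, were Usp25, Ttc39b and Kmt2a. Likeness was the largest gap in any library between log2(RPKM + 1) values centred on each gene's mean, and it was 0.044, 0.044 and 0.045. For Cd38 they were Cmtm7, Selplg and Cd52, with gaps of 0.032, 0.045 and 0.05. Cd8a had a gap of 0.2 to Cd38, with 146 genes closer, and of 0.45 to Entpd1, with 1820 closer.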

How the data were processed

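RNA of enriched CD8+ T cells was selected with oligo-coated beads before DNBSEQ-G50 sequencing, per the labels' protocols. The deposited values carry no unit and are read as RPKM made by the authors, because each value times its gene's exon length in GENCODE M21 (GRCm38) is a whole multiple of 1 step per library. Within 0.02, this held for 98.92% to 98.97% of genes with under 1000 reads. The builds GRCm38 and mm10 are named per the submitters' processing notes, and those sources name neither the aligner nor the counter. The steps gave library totals and reads per gene. Whether counting used strand is not stated.

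Libraries were grouped by title, 2 per treatment. The test was limma 3.58.1 (R 4.3.3) with trend and robust shrinkage on log2(RPKM + 1), which understates the change of low genes, with Benjamini-Hochberg adjustment over the 12484 genes having at least 1 RPKM in at least 2 libraries. It was tested on simulated data, in which no library stood apart as IgG replicate 1 does here. Ratios to Cd8a used RPKM without a pseudocount and a two-sided exact permutation test. Alternatives were 3 scalings, a pseudocount of 0.1, a filter at 5 RPKM or none, a replicate block, limma-voom with at least 10 reads, and leaving out each library in turn. The 8 genes and the lists were chosen with earlier results of these data known. From each pathway list the text names up to 4 tested genes with the smallest p and the 2 with the highest mean, and any other gene was picked after its values were seen. Other genes of the marker lists were picked as defining or abundant genes, or because they ran another way than their list, also after their values were seen. Python 3.11.15, pandas 2.3.3 and scipy 1.17.1 were used.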

Additional observations from a re-analysis of the deposited data

How the results depend on the processing

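Genes called numbered 0 with all libraries, 3 when scaled to Cd8a and 6 under scaling to the T cell identity list, and ran from 0 to 2251 as each library was left out (135 without IgG replicate 1, 2251 without IgG replicate 2, and 0 without either anti-SIGLEC15 library). The replicate block called 0 genes and changed no call. Replicate numbers pair the libraries by name only, and the differences between replicates 1 and 2 of the 2 treatments correlated at 0.33 across genes. Of 86 fold changes of the 8 genes under alternatives, 17 changed sign, 4 of them those of P2rx7, and 3 became called. P2rx7 turned to -0.24 when scaled to Cd8a and to -0.30 when scaled to the T cell identity list, and ran from -0.13 to 0.36 with a library left out. When scaled to Cd8a, Entpd1 turned to -0.17 and Ada to -0.33. When scaled to the T cell identity list, Entpd1 turned to -0.27, Cd38 to -0.03, Adora2a to -0.01 and Ada to -0.40. Under median-of-ratios scaling Ada turned to -0.02. As each library was left out, the log2 fold change ran from -0.11 to 0.83 for Entpd1, from -0.11 to 1.15 for Cd38, from -0.15 to 1.42 for Adora2a, from -0.18 to 0.22 for Ada and from -1.09 to 0.02 for Adk. The log2 difference relative to Cd8a ran from -0.47 to 0.10 for Entpd1 and from -0.05 to 0.17 for Cd38. For Cd38 it was -0.04 relative to the T cell identity list and -0.07 with a pseudocount of 1. The number of the 8 genes higher in both anti-SIGLEC15 libraries was 0 when scaled to the T cell identity list (3.17% of all tested genes), and it was 4 without anti-SIGLEC15 replicate 1 (19.2%), 3 without anti-SIGLEC15 replicate 2 (36.8%), 2 without IgG replicate 1 (26.0%) and 5 without IgG replicate 2 (45.4%). The number lower was 2 without anti-SIGLEC15 replicate 1 (37.9%), 0 without anti-SIGLEC15 replicate 2 (8.5%), 1 without IgG replicate 1 (25.9%) and 1 without IgG replicate 2 (36.2%). The counts are out of 8 genes, of which P2rx7 and Adora2b are not among the tested genes that the percentages cover. These counts and the list medians without a library were added after the data were seen. Other causes of these shifts were not tested. A filter at 5 RPKM leaves out Nt5e, Ada and Adk. Depth limits Adora2b, with 3 to 12 reads per library, and Ada, with 32 to 55.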
